A study of Homo sapiens with 15 samples.

Results

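SNB19 cells transduced with full-length ZBTB18 (FL) were compared with SNB19 cells transduced with the empty vector (EV), using the 3 FL and 3 EV libraries among the 15 libraries of the series and every gene with enough counts to be tested. SNB19 is an established human glioblastoma cell line. Both groups received lentiviral particles of the vector pCHMWS, which carried ZBTB18 in FL and no insert in EV, and both were grown in DMEM with 10% FBS. Polyadenylated RNA was read as PCR-amplified cDNA on the Oxford Nanopore platform. The sources used here give neither the time between transduction and harvest nor any selection or cloning of transduced cells. The other 9 libraries carried a mutant of the full-length protein (FL-mut), a short form (SF-Nte) or a mutant of the short form (SF-mut), and entered the fit only to share its estimate of the spread, except where FL is set against FL-mut or SF-Nte.

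ZBTB18, also known as RP58, is a BTB and zinc finger protein that binds an E-box-like DNA site and represses transcription together with corepressors such as CtBP. It is required for the maturation of cortical neurons in the mouse, and in glioblastoma it is known as a repressor of genes of the mesenchymal state. That state is marked by matrix, adhesion, calcium-binding and cytokine genes and is linked to migration and invasion.

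Of the 18485 gene symbols counted, 6767 had enough counts to be tested, and 21 of them passed an edgeR quasi-likelihood test at a Benjamini-Hochberg adjusted p under 0.05, which is 0.310% of the genes tested. Higher in FL were 10 genes (0.148%) and lower were 11 (0.163%). The median log2 fold change over all genes tested was -0.01, and 517 genes had an unadjusted p under 0.05. All 3 FL libraries lay above all 3 EV libraries for 8.75% of the genes tested and below them for 8.17%. Levels are given as CPM, the gene's share of the library's TMM-scaled total, and a fold change is FL over EV.

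Promoter sequence was read for 19 of the 21 genes from RefSeq (GRCh38.p14), as the 250 bases before the start site, and LGALS1 and CCL2 were not matched. The letters CAGATG, the core of the site bound by ZBTB18, were searched on both strands. They occurred in 4 of these promoters, which are shown because they hold the letters, in capitals and as CATCTG where the other strand carries them. ZBTB18 lies on chromosome 1 (chr1:244048403-244048652, plus strand), ABHD12B on chromosome 14 (chr14:50871803-50872052, plus strand), S100A6 on chromosome 1 (chr1:153535992-153536241, minus strand) and MDP1 on chromosome 14 (chr14:24216067-24216316, minus strand).
ZBTB18: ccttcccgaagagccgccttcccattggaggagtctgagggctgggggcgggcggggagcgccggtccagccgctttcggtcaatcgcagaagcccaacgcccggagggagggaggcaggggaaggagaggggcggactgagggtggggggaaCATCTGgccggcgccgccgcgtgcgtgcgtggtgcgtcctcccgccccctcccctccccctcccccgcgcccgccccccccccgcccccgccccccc
ABHD12B: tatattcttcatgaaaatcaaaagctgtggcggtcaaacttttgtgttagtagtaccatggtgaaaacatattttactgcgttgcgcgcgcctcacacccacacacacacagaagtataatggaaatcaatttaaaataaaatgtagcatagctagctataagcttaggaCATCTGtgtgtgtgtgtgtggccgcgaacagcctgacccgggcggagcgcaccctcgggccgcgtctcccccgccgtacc
S100A6: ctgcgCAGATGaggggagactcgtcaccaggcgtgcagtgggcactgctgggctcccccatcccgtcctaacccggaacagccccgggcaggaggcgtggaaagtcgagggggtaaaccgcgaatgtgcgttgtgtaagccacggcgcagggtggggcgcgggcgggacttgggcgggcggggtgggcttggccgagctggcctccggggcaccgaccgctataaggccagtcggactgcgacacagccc
MDP1: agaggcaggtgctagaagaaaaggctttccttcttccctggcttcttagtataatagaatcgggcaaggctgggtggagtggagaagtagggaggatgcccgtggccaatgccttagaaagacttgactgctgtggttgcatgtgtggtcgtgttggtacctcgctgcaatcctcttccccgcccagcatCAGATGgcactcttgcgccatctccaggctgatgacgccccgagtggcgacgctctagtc
The first base of the match lay 97 bases before the start site in ZBTB18, 80 in ABHD12B, 245 in S100A6 and 60 in MDP1. CAGATG stood in 2 of the 9 matched genes lower in FL, in 1 of the 9 matched genes higher in FL other than ZBTB18, and in 7.86% of the 5283 promoters of genes tested (12.2% of all 27305 promoters in the table). CAGATG is itself an E-box of the form CANNTG, which 53.1% of the promoters of genes tested held. The longer form CCAGATGT, which holds CAGATG, stood in ZBTB18 alone among the 19, and in 0.587% of the promoters of genes tested.

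The 5 SPANX genes among the 21 are related copies on chromosome X. For this family 1 promoter is shown for SPANXA1 (chrX:141584739-141584988, minus strand) and 1 for SPANXC (chrX:141242518-141242767, minus strand). These bases lie before the start site, so their likeness does not show how reads were assigned among the copies.
SPANXA1: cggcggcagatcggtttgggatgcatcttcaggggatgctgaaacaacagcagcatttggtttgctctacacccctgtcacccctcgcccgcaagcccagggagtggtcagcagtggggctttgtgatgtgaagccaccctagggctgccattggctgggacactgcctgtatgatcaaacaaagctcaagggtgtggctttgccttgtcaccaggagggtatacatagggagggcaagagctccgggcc
SPANXC: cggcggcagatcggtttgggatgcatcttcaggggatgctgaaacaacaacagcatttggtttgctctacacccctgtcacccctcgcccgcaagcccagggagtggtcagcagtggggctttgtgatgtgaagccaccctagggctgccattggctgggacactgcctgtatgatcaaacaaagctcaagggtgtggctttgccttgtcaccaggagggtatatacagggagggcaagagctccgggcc
The SPANXA1 and SPANXA2 stretches were the same at all 250 bases, and those of SPANXA1 and SPANXC at 247 of 250 (98.8%). The stretches of SPANXB1 and SPANXD and the transcripts of the copies were not compared.

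Total counts were 1393060, 803316 and 1054989 in FL replicates 1, 2 and 3, and 1930245, 1371908 and 1274474 in the EV replicates. Whether the replicates were separate cultures is not stated in the labels, and a p-value here covers no more than the spread among these libraries, which may be technical. In bulk RNA, fewer cells with a transcript and less of it per cell cannot be told apart. Of the markers of the line, GFAP reached at most 2.08 CPM and S100B at most 4.16 CPM in any FL or EV library, and the 11 glioma and astrocytic markers together summed to 265 to 716 CPM in FL and 573 to 1192 CPM in EV. Summed epithelial markers were 199 to 350 CPM in FL and 46.0 to 116 CPM in EV, most of it MUC1 in FL (335, 194 and 166 CPM in FL, 15.003, 101 and 64.1 CPM in EV), while CDH1 was at 0 in FL and at most 0.729 CPM in EV. Summed neuronal markers were 19.4 to 43.6 CPM in FL and 2.50 to 17.5 CPM in EV, mostly MAP2, with SNAP25 at 0 throughout. Summed immune markers were 6.94 to 12.4 CPM in FL and 12.5 to 16.003 CPM in EV. The part of these markers in the results was not tested.

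The transduced gene itself rose in FL. ZBTB18 (chromosome 1, 244048939 to 244057476, GRCh38) had 635, 3067 and 623 CPM in FL replicates 1, 2 and 3, against 7.001, 4.37 and 7.12 CPM in the EV replicates. FL replicate 2 held far more of it than the other FL libraries, and every FL library stood well above every EV library. The log2 fold change was 7.83 ± 1.01 (SE; edgeR adjusted p = 0.00131). The counts do not tell the cell's own transcript from that of the vector.

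**Figure D1:**
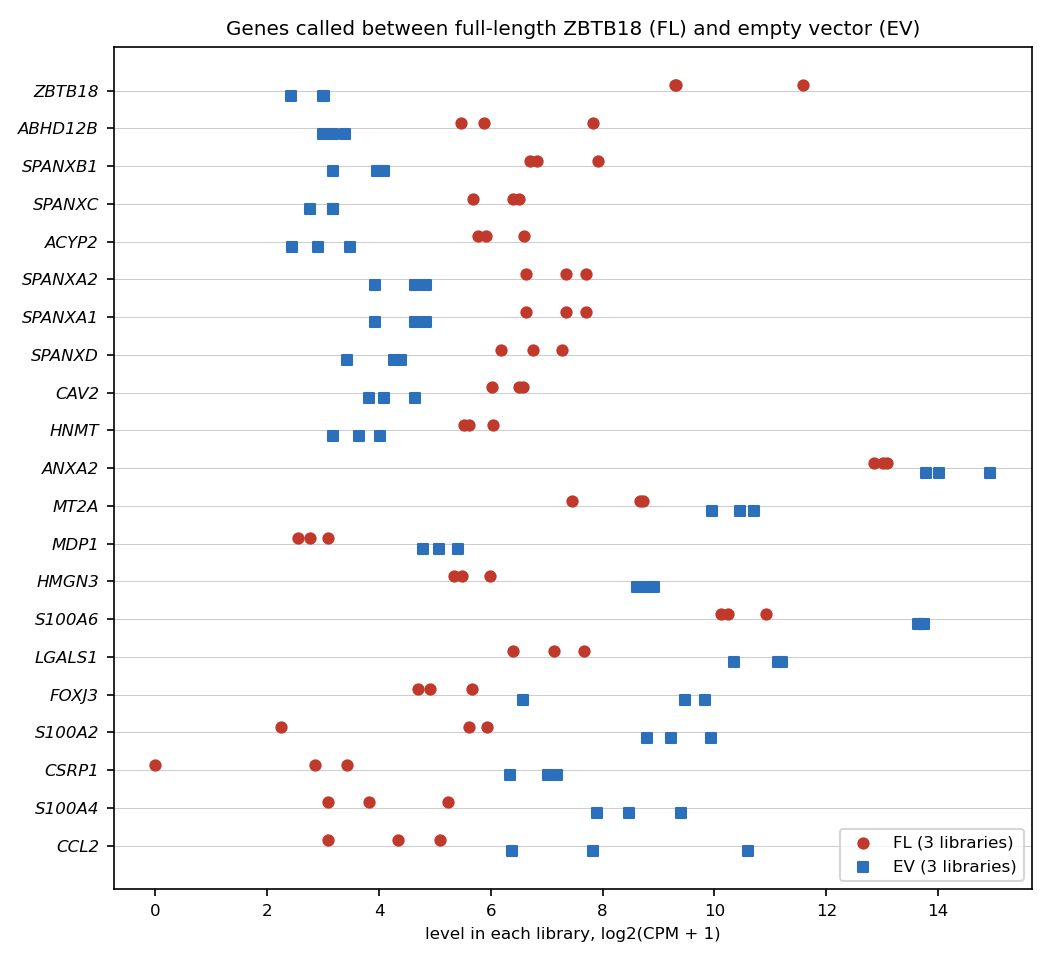
Level of each of the 21 called genes in the FL libraries (circles) and the EV libraries (squares), as log2(CPM + 1), ordered by log2 fold change. The FL and EV libraries do not overlap for any of the 21, and CSRP1 has 0 counts in FL replicate 3.

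Transcripts of 3 calcium-binding proteins of the S100 family, encoded side by side on chromosome 1, fell in FL. S100A6 (chromosome 1, 153534599 to 153536244, GRCh38), whose transcript is among the most abundant of the line, had 1931, 1208 and 1109 CPM in FL and 12727, 13753 and 13131 CPM in EV. Its EV libraries lay close together, and the highest FL library stayed far below them (log2 fold change -3.22 ± 0.24, SE; edgeR adjusted p = 3.11e-06). S100A4, linked to migration and metastasis, had 13.2, 7.46 and 36.8 CPM in FL and 238, 354 and 671 CPM in EV (-4.44 ± 0.53; edgeR adjusted p = 0.000728). S100A2 had 47.9, 3.73 and 60.01 CPM in FL and 441, 597 and 978 CPM in EV (-4.15 ± 0.63; edgeR adjusted p = 0.00837). FL replicate 2 was the lowest FL library for S100A4 and S100A2, and no FL library reached any EV library. All 3 calls held in each of the 6 fits that left out 1 FL or EV library, while that of S100A2 was lost in an unpaired fit of the 6 FL and EV libraries alone.

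Other members of the S100 list are shown as values. S100A16 had 75.6, 36.1 and 17.4 CPM in FL and 387, 211 and 177 CPM in EV, with no overlap, and missed the threshold (edgeR adjusted p = 0.0666; 0.0257 with the replicate number as a block). S100A3 had 0 counts in all FL libraries and 51 in the EV libraries together. With the libraries of each group pooled, it was at least 12.4-fold lower with 3 counts over the group as the floor. S100A3 overlaps S100A4 on the same strand, so reads of the neighbours may have been assigned together. Of the 8 S100 genes tested, all had a log2 fold change below 0, with a median of -2.90 against -0.01 over all genes. Of these, 5 lay below EV with no overlap, against 8.17% of all genes tested. S100A10, S100A11 and S100A13 overlapped, at log2 fold changes of -0.94, -0.20 and -0.03.

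Transcripts of a galectin, an annexin and a nucleosome-binding protein also fell. LGALS1, which encodes the secreted lectin galectin-1, had 202, 83.3 and 138 CPM in FL and 2375, 1299.7 and 2259 CPM in EV. The log2 fold change was -3.80 ± 0.46 (SE; edgeR adjusted p = 0.000771), with all FL libraries far below all EV libraries. HMGN3, a protein that binds nucleosomes and opens chromatin, had 43.7, 62.2 and 39.7 CPM in FL and 482, 389.8 and 441 CPM in EV (-3.17 ± 0.29; edgeR adjusted p = 3.15e-05). Both groups were narrow for HMGN3. These 2 calls held in each of the 6 fits with 1 library left out. ANXA2, which encodes the membrane-binding annexin A2, had 7441, 8235 and 8709 CPM in FL and 14039, 16531 and 31278 CPM in EV (-1.34 ± 0.26; edgeR adjusted p = 0.0457). The FL libraries were alike while EV replicate 3 held about as much as the other EV libraries together, and the call held in 1 of the 6 fits. Among the other members of these families, the galectins LGALS3 and LGALS8 had log2 fold changes of 1.12 and 1.55 with no overlap, the annexins ANXA1, ANXA11 and ANXA7 of 1.16, -0.66 and -0.48 with no overlap, and the remaining HMGN genes tested, HMGN1, HMGN2, HMGN4 and HMGN5, of 0.53, -0.88, -0.09 and 1.04 with overlap.

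The other genes that fell have varied roles. MT2A, a metallothionein that binds zinc and copper, had 422, 174 and 406 CPM in FL and 995, 1399 and 1669 CPM in EV, a log2 fold change of -2.02 ± 0.34 (SE; edgeR adjusted p = 0.0167). FL replicate 2 was the lowest library, and the groups were clear of each other. The other metallothioneins tested, MT1F and MT1X, had log2 fold changes of 0.01 and 0.19 with overlap. MDP1, a magnesium-dependent phosphatase, had 4.85, 7.46 and 5.81 CPM in FL and 26.5, 32.8 and 41.8 CPM in EV (-2.47 ± 0.45; edgeR adjusted p = 0.0285). The call was lost in the paired fit of the 6 FL and EV libraries described further on (edgeR adjusted p = 0.0551). These levels rest on 6 or 7 counts per FL library, and MDP1 overlaps the read-through transcript NEDD8-MDP1 on the same strand. FOXJ3, a forkhead transcription factor, had 49.9, 24.9 and 29.04 CPM in FL and 913, 93.98 and 708 CPM in EV (-4.03 ± 0.72; edgeR adjusted p = 0.0285). EV replicate 2 held far less of it than the other EV libraries.

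CSRP1, a LIM-domain protein of actin fibres, had 9.71, 6.22 and 0 CPM in FL and 80.5, 145 and 129 CPM in EV (-4.40 ± 0.80; edgeR adjusted p = 0.0285). FL replicate 3 had 0 counts, which allows up to 2.90 CPM. CCL2, a chemokine that attracts monocytes, had 33.3, 7.46 and 19.4 CPM in FL and 82.5, 227 and 1550.1 CPM in EV (-4.90 ± 0.90; edgeR adjusted p = 0.0285). The EV libraries differed widely among themselves, and EV replicate 1 was the nearest to FL. CCL2 missed the threshold once the replicate number was a block (edgeR adjusted p = 0.0542). The MT2A call held in 3 of the 6 fits with 1 library left out, those of CSRP1 and CCL2 in 2 and those of MDP1 and FOXJ3 in 1.

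Besides ZBTB18, the genes that rose were the SPANX genes and 4 others. The SPANX genes are cancer-testis genes, normally read in sperm precursors and switched on in many tumours. SPANXB1 had 103, 240.1 and 112 CPM in FL and 16.003, 14.6 and 8.01 CPM in EV (3.53 ± 0.62; edgeR adjusted p = 0.0282). SPANXC had 90.2, 83.3 and 50.3 CPM in FL and 8.002, 5.83 and 8.01 CPM in EV (3.33 ± 0.61; edgeR adjusted p = 0.0285). SPANXD had 107, 153 and 71.6 CPM in FL and 20.004, 18.2 and 9.79 CPM in EV (2.76 ± 0.52; edgeR adjusted p = 0.0347). All FL libraries stood above all EV libraries for each of them. SPANXA1 and SPANXA2 shared the same counts in all FL and EV libraries, with 162, 206 and 97.8 CPM in FL and 27.5, 24.04 and 14.2 CPM in EV (2.81 ± 0.56; edgeR adjusted p = 0.0457), so how many copies rose is uncertain. Leaving out 1 library kept the call in 2 of 6 fits for SPANXB1, in 1 for SPANXC and SPANXD and in 0 for SPANXA1 and SPANXA2. The other cancer-testis genes tested, MAGEA2, MAGEA3, MAGEA6, MAGEA12 and GAGE12J, had log2 fold changes of -0.50 to 0.15 and overlapped.

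ACYP2, an acylphosphatase, had 53.4, 95.8 and 59.04 CPM in FL and 6.50, 10.2 and 4.45 CPM in EV (3.27 ± 0.51; edgeR adjusted p = 0.00877). PSME4, which overlaps it on the other strand, had a log2 fold change of 0.50 ± 0.82 (SE). ABHD12B, named as a hydrolase, had 42.998, 226 and 58.1 CPM in FL and 7.001, 9.47 and 8.01 CPM in EV (3.72 ± 0.72; edgeR adjusted p = 0.0406). The EV libraries were nearly level, FL replicate 2 was the highest library, and PYGL, which overlaps the gene on the other strand, had a log2 fold change of -1.33 ± 0.59. CAV2, which encodes the membrane protein caveolin-2, had 63.8, 94.5 and 90.02 CPM in FL and 24.01, 13.1 and 16.03 CPM in EV (2.20 ± 0.44; edgeR adjusted p = 0.0457), while CAV1 had a log2 fold change of 0.02. HNMT, the enzyme that methylates histamine, had 47.9, 44.8 and 64.9 CPM in FL and 11.5, 15.3 and 8.01 CPM in EV (2.16 ± 0.43; edgeR adjusted p = 0.0457). The FL libraries of both lay above all EV libraries. With the replicate number as a block on all 15 libraries, CAV2, HNMT and ABHD12B missed the threshold (edgeR adjusted p = 0.063, 0.0652 and 0.0542), and in the paired fit of 6 libraries CAV2 and HNMT missed it (0.0544 and 0.0719) while ABHD12B passed (0.0298). The calls of CAV2 and HNMT held in 0 of the 6 fits with 1 library left out, that of ABHD12B in 1 and that of ACYP2 in 3.

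Over the 20 called genes other than ZBTB18, FL replicate 2 lay farthest from EV in 13, FL replicate 1 in 3 and FL replicate 3 in 4. FL replicate 2 is the FL library with the most ZBTB18 and also the one with the fewest counts, and which of these bears on the distance was not tested. The number of genes called was 6 without FL replicate 2, 6 without EV replicate 3, 9 without EV replicate 2, 14 without EV replicate 1, 11 without FL replicate 3 and 23 without FL replicate 1.

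**Figure D2:**
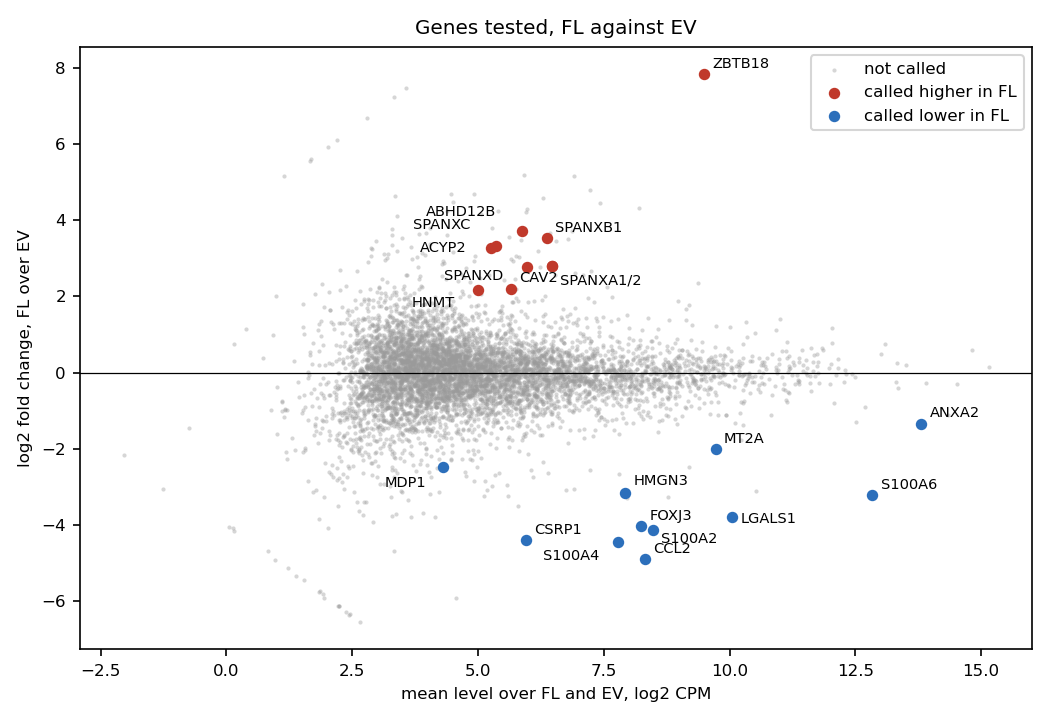
Log2 fold change of FL over EV for the 6767 genes tested, against the mean level over the FL and EV libraries on a log2 CPM scale. The 11 genes called lower (blue) include S100A6 and ANXA2 near the top of the range of levels, and the genes called higher (red) other than ZBTB18 lie at low to middle levels.

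FL and EV libraries of the same replicate number deviated together from their group means (correlations of 0.35, 0.14 and 0.43), so they were also fitted as 3 pairs. The pairing is uncertain, as FL replicate 2 and FL-mut replicate 3, of different numbers, correlated at 0.295. In that fit of 6 libraries, 69 of 6499 genes passed (1.06%), 48 higher (0.739%) and 21 lower (0.323%) in FL. Without the pairs, 13 passed in a fit of the same 6 libraries and 21 of 6767 in the fit of all 15. Of the 69, 17 were also among the 21 called in the fit of all 15 libraries. No overlap between FL and EV was seen for 65, against 16.9% of the 6767 genes tested in the fit of all 15. As the 69 were picked on these same libraries, that separation is no separate evidence. The count rested on the pairs used, at 181 without pair 1, 15 without pair 2 and 183 without pair 3, and 14 of the 69 passed in all of these. Each of these fits held 2 pairs and left 1 residual degree of freedom. Its p-values therefore lean on the spread shared among genes, and passing or missing the threshold there says little about a single gene. The genes named from this fit were chosen after their values were seen. Of the named genes not among the 21, MGST3, S100A16, PKM and LDHB also passed with the replicate block on all 15 libraries. SH3BGRL and PEG10, whose levels are not given here, passed there too. IFI27 was not tested there, and the other named genes missed the threshold there (edgeR adjusted p of 0.063 to 0.612). That block gives all 5 groups the same replicate effect, although the numbers were not found to pair FL with FL-mut or SF-Nte. Passing or missing it is therefore a limited check.

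Among the 21 genes lower in the paired fit, PGRMC1, a haem-binding membrane protein, had 193, 437 and 288 CPM in FL and 1868, 4491 and 1571 CPM in EV (-3.05 ± 0.25, SE; edgeR adjusted p = 0.00192). MGST3, a membrane glutathione transferase, had 270.5, 631 and 726 CPM in FL and 931, 2316 and 2321 CPM in EV (-1.80 ± 0.19; edgeR adjusted p = 0.00696). S100A16, with the levels given above, had a paired log2 fold change of -2.74 ± 0.31 (edgeR adjusted p = 0.00979). Every pair was lower in FL for these 3 genes. All 3 passed with any 1 pair left out, in fits that left 1 residual degree of freedom. PGRMC1, however, missed the threshold with the block on 15 libraries (edgeR adjusted p = 0.157) and without the pairs (0.157).

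Of 15 glycolysis genes tested in the paired fit, 2 were called, both lower, against 0.323% of all genes tested called lower. PKM, pyruvate kinase, had 5302, 2613 and 2315 CPM in FL and 10598, 7415 and 7016 CPM in EV (-1.39 ± 0.19; edgeR adjusted p = 0.026). LDHB, a lactate dehydrogenase subunit, had 560.4, 517 and 570.1 CPM in FL and 1155, 1069 and 1372 CPM in EV (-1.14 ± 0.19; edgeR adjusted p = 0.0398). TKT, the transketolase of the pentose phosphate pathway, had 1151, 231 and 508 CPM in FL and 2679, 1016 and 1071 CPM in EV (-1.49 ± 0.25; edgeR adjusted p = 0.0398). PKM and LDHB did not overlap between FL and EV, whereas the highest FL library of TKT stood above the lowest EV libraries. Without pair 2 these 3 genes missed the threshold (edgeR adjusted p = 0.0747, 0.0994 and 0.0863), as did LDHB without pair 3 (0.0665). SPP1, osteopontin, had 284, 58.5 and 189.7 CPM in FL and 899.7, 1089 and 993 CPM in EV (-2.71 ± 0.46; edgeR adjusted p = 0.0398), and TGFBI, a matrix protein induced by TGF-beta, had 22.2, 0 and 3.87 CPM in FL and 149, 53.9 and 63.2 CPM in EV (-3.72 ± 0.63; edgeR adjusted p = 0.0419). Both were lowest in FL replicate 2, and TGFBI missed the threshold without pair 2 (edgeR adjusted p = 0.0602).

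Of 18 cholesterol synthesis genes tested in the paired fit 2 were called higher, and of 8 genes of SREBP regulation and sterol uptake 1, against 0.739% of all genes tested. FDPS, farnesyl diphosphate synthase, had 1639, 2555 and 4722 CPM in FL and 736, 1121 and 1486 CPM in EV (1.31 ± 0.19; edgeR adjusted p = 0.0298). HMGCS1, which makes the precursor of mevalonate, had 34.7, 107 and 132 CPM in FL and 6.001, 3.64 and 26.7 CPM in EV (3.04 ± 0.54; edgeR adjusted p = 0.0486). INSIG1, which holds back SREBP activation when sterols are plentiful, had 30.5, 137 and 150.03 CPM in FL and 4.50, 8.74 and 15.1 CPM in EV (3.33 ± 0.41; edgeR adjusted p = 0.014). All 3 lay higher in FL in every pair, with the smallest FL level in replicate 1. FDPS, HMGCS1 and INSIG1 missed the threshold without pair 2 (edgeR adjusted p = 0.0716, 0.0862 and 0.0634) and with the block on 15 libraries (0.189, 0.136 and 0.124).

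Other genes higher in the paired fit have varied roles. CFI, complement factor I, had 40.2, 59.7 and 257 CPM in FL and 2.0004, 5.10 and 11.6 CPM in EV (4.09 ± 0.41; edgeR adjusted p = 0.00659). DIO2, the deiodinase that activates thyroid hormone, had 159, 54.7 and 139 CPM in FL and 2.50, 5.83 and 0.890 CPM in EV (5.10 ± 0.69; edgeR adjusted p = 0.026). Both passed with any 1 pair left out, where 1 residual degree of freedom remained, and missed the threshold with the block on 15 libraries (edgeR adjusted p = 0.188 and 0.12). CTGF, a matricellular protein, had 118, 37.3 and 112 CPM in FL and 17.5, 9.47 and 6.23 CPM in EV (2.89 ± 0.49; edgeR adjusted p = 0.0398), and IL13RA2, a decoy receptor for interleukin 13, had 142, 363 and 429.8 CPM in FL and 34.01, 121 and 40.96 CPM in EV (2.29 ± 0.38; edgeR adjusted p = 0.0398). IFI27, an interferon-induced gene, had 8.32, 26.1 and 81.3 CPM in FL and 0 counts in all EV libraries. The kinase gene VRK2 had 19.4, 23.6 and 17.4 CPM in FL and 0 counts in EV. With the libraries of each group pooled and 3 counts over EV as the floor, FL was at least 53.5-fold and 29.7-fold higher. These bounds leave out the spread among the FL libraries, which was wide for IFI27. Without pair 2, CTGF, IL13RA2, IFI27 and VRK2 missed the threshold (edgeR adjusted p = 0.0634, 0.0716, 0.0602 and 0.11).

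Of the annexins, ANXA1 and ANXA2 passed in this fit, on opposite sides of EV. ANXA1, annexin A1, had 4715, 4500.4 and 8163 CPM in FL and 1923, 2046 and 3801 CPM in EV (1.15 ± 0.17; edgeR adjusted p = 0.0298). ANXA2 had a paired log2 fold change of -1.28 ± 0.22 (edgeR adjusted p = 0.0425). ANXA1 was higher in FL in every pair and ANXA2 lower, and both missed the threshold without pair 2 (edgeR adjusted p = 0.0747 and 0.109). MEF2C, a transcription factor of muscle and neurons, had 63.1, 31.1 and 65.8 CPM in FL and 6.001, 5.10 and 9.79 CPM in EV (2.90 ± 0.44; edgeR adjusted p = 0.033), and TAX1BP1, an autophagy receptor, had 406, 728 and 799 CPM in FL and 137, 355 and 254 CPM in EV (1.40 ± 0.23; edgeR adjusted p = 0.0392). Both missed the threshold without pair 2 (edgeR adjusted p = 0.0716 and 0.0663).

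**Figure D3:**
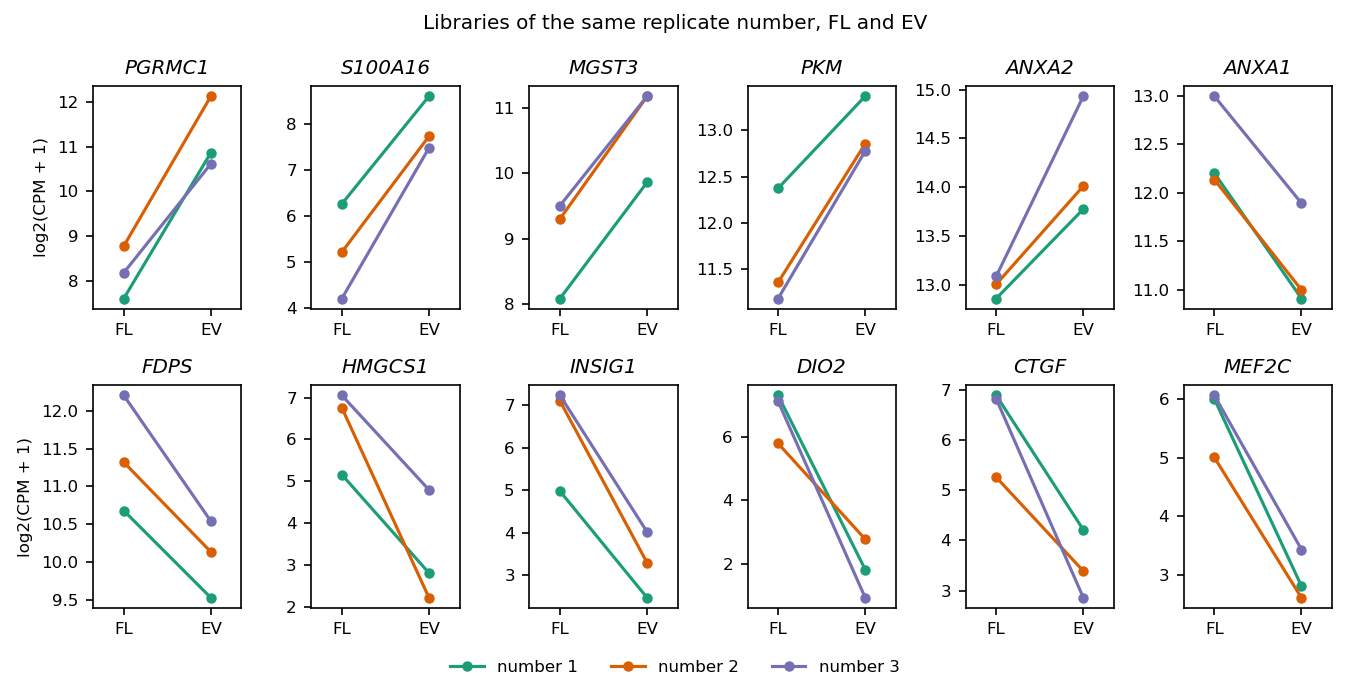
Levels of 12 genes that passed in the paired fit, as log2(CPM + 1), in FL (left of each panel) and EV (right), with a line joining the libraries of the same replicate number. The 3 lines of each gene run in the same direction, lower in FL for PGRMC1, S100A16, MGST3, PKM and ANXA2 and higher in FL for the other 7, and each panel has its own axis range.

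Gene groups were described by 39 lists, without a test of the list. A list's count of members with no overlap between FL and EV is to be read against the 8.75% higher and 8.17% lower of all genes tested, and its median log2 fold change against -0.01. Of the 39 medians, 29 lay below 0. Calls in the lists below are those of the fit of all 15 libraries without pairs, and the paired fit also called other members. Apart from the genes described above, the members named below missed the threshold in the fit without pairs unless said otherwise. Their values are given for what they were.

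In the list of mesenchymal glioblastoma genes, 29 members were tested, 4 of them fell (LGALS1, S100A4, S100A6 and ANXA2) and 0 rose. Over all genes tested, 0.163% were called lower. Of the 29, 14 lay below EV and 4 above EV with no overlap, and the median was -1.34. The uncalled members included the urokinase gene PLAU, at 0, 0 and 1.94 CPM in FL and 15.003, 16.8 and 26.7 CPM in EV (edgeR adjusted p = 0.0723). Its receptor PLAUR was at 15.3, 16.2 and 21.3 CPM in FL and 252, 47.4 and 56.1 CPM in EV, where EV replicate 1 stood well above the others. FN1, LGALS3, ANXA1 and TAGLN lay above EV with no overlap, at log2 fold changes of 2.42, 1.12, 1.16 and 1.40.

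Of 14 extracellular matrix genes tested, 0 passed, 5 lay below EV and 1, FN1, above EV with no overlap, and the median was -0.64. TNC, the matrix glycoprotein tenascin-C, had 39.5, 23.6 and 21.3 CPM in FL and 86.5, 61.9 and 126 CPM in EV, and the collagen chain COL5A1, whose counts were all even, 0, 0 and 1.94 CPM in FL and 7.001, 27.7 and 105 CPM in EV. Of 13 matrix proteases and inhibitors tested, 0 passed and 5 lay below EV (median -0.57). MMP2, a gelatinase, had 4.16, 0 and 1.94 CPM in FL and 20.5, 37.2 and 41.8 CPM in EV, and CTSL, the protease cathepsin L, 36.1, 27.4 and 24.2 CPM in FL and 96.02, 138 and 43.6 CPM in EV. For these 4 genes every FL library stood below every EV library. Of 14 integrins and adhesion receptors tested, 0 passed and 2 lay below EV, among them ITGA3 with 7.63, 13.7 and 12.6 CPM in FL and 54.5, 42.98 and 50.7 CPM in EV.

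Targets of TGF-beta and SMAD proteins had a median of -1.95 over 10 genes tested, with 9 below 0, 4 below EV with no overlap and 0 called. PMEPA1, a feedback inhibitor of that pathway, had 22.2, 4.98 and 3.87 CPM in FL and 72.02, 86.7 and 95.3 CPM in EV. YAP targets were split, with 4 of 11 below EV, 1 above EV, 0 called and a median of -0.77. MYOF, a membrane-repair protein, had 3.47, 4.98 and 2.90 CPM in FL and 43.01, 32.8 and 24.9 CPM in EV. MYOF passed in the paired fit (edgeR adjusted p = 0.0398). It missed the threshold there without pair 1 or pair 2 (edgeR adjusted p = 0.0752 and 0.0994), and with the block on 15 libraries (0.0801). CTGF, also a target of YAP, stood on the other side of EV. Of 28 actin-binding and contractile genes tested, CSRP1 fell, 6 lay below EV and 3 above EV with no overlap, and the median was -0.47.

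Among cytokines and NF-kB targets, 6 genes were tested, CCL2 fell, 4 lay below EV with no overlap, and the median was -2.34. IL6, BIRC3 and TNFAIP2 were the others of the 4, with log2 fold changes of -3.40, -3.63 and -1.27. Interferon-stimulated genes showed no common side, at a median of -0.37 over 7 tested. Of 14 genes of MHC class I and antigen processing, 0 passed and 2 lay below EV, among them the peptide transporter gene TAP2.

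No cholesterol synthesis gene passed without the pairs. Of 18 tested, 17 had a log2 fold change above 0, 9 lay above EV with no overlap, 0 lay below and 9 overlapped, with a median of 1.40. Within the pairs of replicates 1, 2 and 3 the medians were 0.65, 1.41 and 1.33. FDFT1, squalene synthase, had 363, 1102 and 1244 CPM in FL and 247, 236 and 313 CPM in EV (edgeR adjusted p = 0.252), with FL replicate 1 nearest to EV. Of 10 genes of SREBP regulation and sterol uptake, INSIG1 and the cholesterol exporter of the lysosome NPC1 lay above EV and 1 member below, NPC1 with 46.5, 719 and 219 CPM in FL and 13.5, 13.1 and 17.8 CPM in EV. Fatty acid synthesis and desaturation genes had a median of -0.06 over 13 tested, with 0 of them clear of EV on either side.

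Chaperones of the endoplasmic reticulum had a median of 0.90 over 18 tested, with 16 above 0, 6 above EV with no overlap, 0 below and 0 called. Within the pairs of replicates 1, 2 and 3 the medians were 0.14, 1.24 and 0.89. DNAJC3, a cochaperone of BiP, had 64.5, 127 and 144 CPM in FL and 30.5, 56.1 and 46.3 CPM in EV, and HSP90B1, the chaperone GRP94, 140.1, 223 and 324 CPM in FL and 116, 70.7 and 139 CPM in EV. CANX, the lectin chaperone calnexin, had 201, 356 and 299 CPM in FL and 198, 139.9 and 149.6 CPM in EV, so that FL replicate 1 and EV replicate 1 were nearly level for it. Heat shock proteins of the cytosol and mitochondria had a median of -0.02 over 15 tested. The amino acid response genes of ATF4, in contrast, had a median of -0.74 over 21 tested, with 5 below EV, 0 above and 0 called. SLC7A5, an importer of large amino acids, had 5.55, 2.49 and 0 CPM in FL and 16.5, 18.9 and 19.6 CPM in EV, and MTHFD2, a mitochondrial folate enzyme, 80.4, 114 and 126 CPM in FL and 165, 333 and 224 CPM in EV.

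In metabolism, hypoxia response genes had a median of -0.73 over 14 tested with 2 below EV, and glycolysis genes -0.31 over 16 tested with 2 below and 1 above. LDHA was the one above, at 64.5, 65.9 and 63.9 CPM in FL and 46.5, 39.3 and 44.5 CPM in EV, opposite to LDHB. Cytochrome c oxidase subunits had a median of 0.41 over 12 tested with 11 above 0 and 1, COX5A, above EV with no overlap, while the other respiratory complexes had a median of -0.01 over 61 tested.

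No cell cycle gene passed. S phase genes had a median of -0.31 over 20 tested and G2 and mitosis genes one of 0.05 over 26, with 1 member on each side of EV in both. MYC, a driver of growth, had 9.02, 11.2 and 9.68 CPM in FL and 62.01, 33.5 and 50.7 CPM in EV (edgeR adjusted p = 0.154), with no overlap. The p53 targets had 0 of 10 members clear of EV and a median of -0.18, the proteasome a median of -0.03 over 30 tested, and the corepressor partners of ZBTB18 a median of -0.06 over 12 tested with 0 clear of EV. Of 8 neuronal, progenitor and glial genes tested, 0 passed, 2 lay below EV, 6 overlapped and the median was -0.34. NES, the intermediate filament nestin, had 1.39, 2.49 and 4.84 CPM in FL and 17.004, 13.8 and 21.4 CPM in EV. PDGFRA had 0 counts in FL and 20 in EV. With the libraries of each group pooled, it was at least 4.86-fold lower with 3 counts over the FL libraries as the floor. FABP7 and MAP2 had log2 fold changes of 1.33 and 1.45 with overlap.

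**Figure D4:**
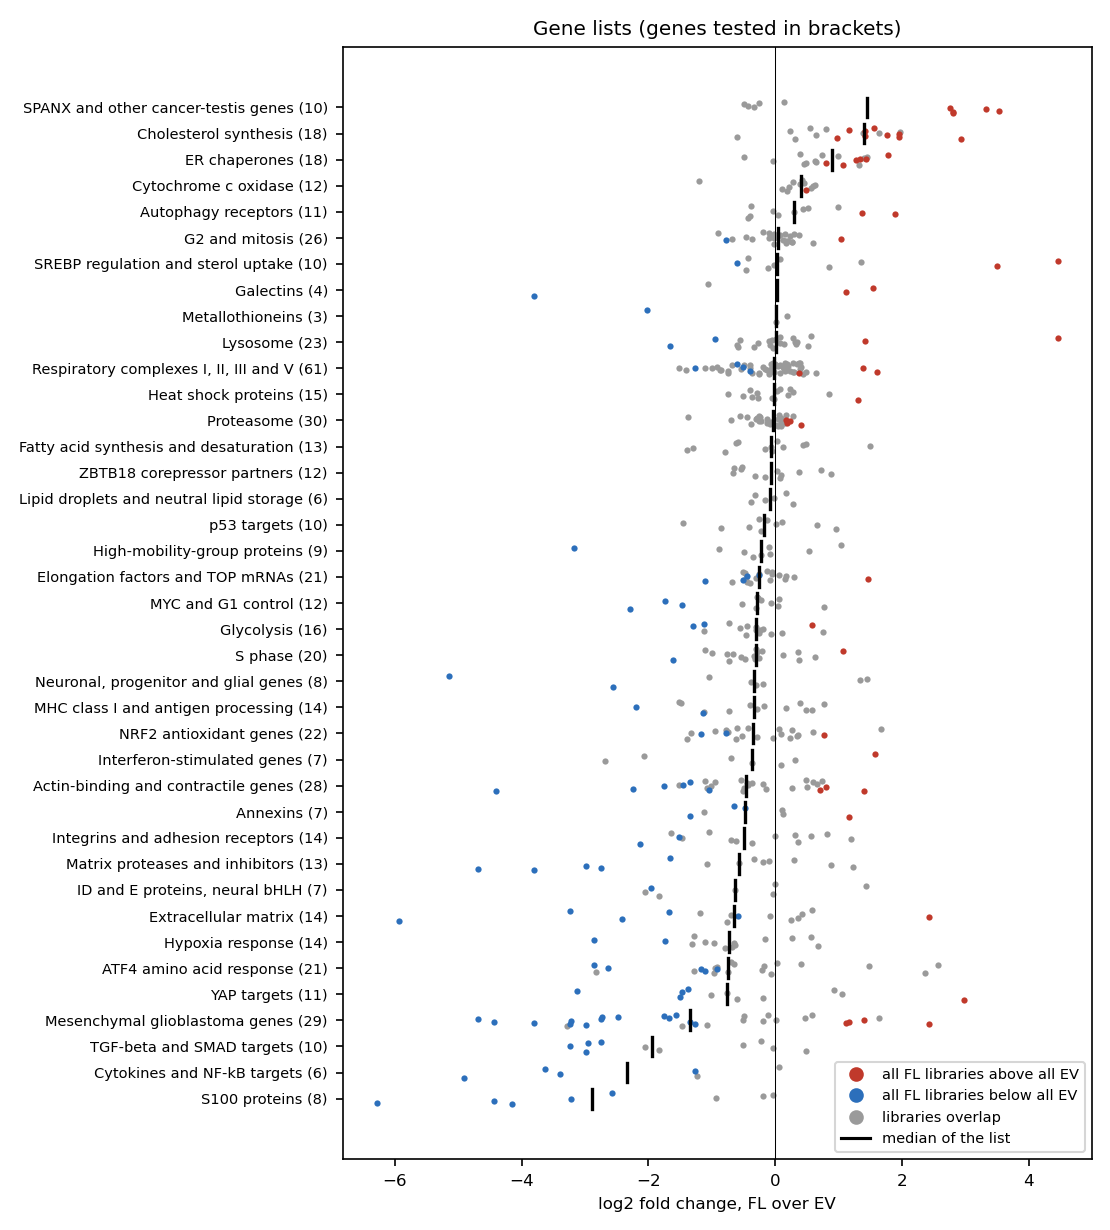
Log2 fold change of FL over EV for each tested member of 39 gene lists, ordered by the list median (black bar). Red points lie above EV and blue points below EV in all libraries, grey points overlap. The S100, cytokine, TGF-beta and mesenchymal lists have the lowest medians (-2.90, -2.34, -1.95 and -1.34), and the cancer-testis, cholesterol synthesis and ER chaperone lists the highest (1.45, 1.40 and 0.90). The cancer-testis median lies between the 5 SPANX genes (2.76 to 3.53) and 5 other genes (-0.50 to 0.15) and near none of them.

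The FL libraries were also set against the other constructs, which share the FL libraries with the comparison above. Against FL-mut, a mutant whose changed residues the sources used here do not give, 6 of 6767 genes passed (0.0887%), 2 higher (0.0296%) and 4 lower (0.0591%) in FL. S100A6 averaged 1416 ± 449 CPM in FL and 5263 ± 1012 CPM in FL-mut (SD, n = 3 each), with a log2 difference of -1.89 ± 0.23 (SE; edgeR adjusted p = 0.00186). HMGN3 averaged 48.5 ± 12.01 CPM in FL and 235 ± 24.9 CPM in FL-mut (-2.28 ± 0.28; edgeR adjusted p = 0.00186), and LGALS1 141 ± 59.3 CPM in FL and 1199 ± 696 CPM in FL-mut (-3.08 ± 0.45; edgeR adjusted p = 0.00964). S100A16, the other gene called lower, averaged 43.03 ± 29.7 CPM in FL and 422 ± 222 CPM in FL-mut (-3.27 ± 0.56; edgeR adjusted p = 0.0302). These 4 genes stood lower with the full-length protein than with its mutant. The SPANX genes, CAV2, CCL2 and FOXJ3 had log2 differences of -0.48 to 0.19 between FL and FL-mut, with edgeR adjusted p of 0.749 to 0.991, and S100A4, S100A2, MT2A and ANXA2 of -1.30, -0.93, -0.88 and -0.60, with edgeR adjusted p of 0.334 to 0.537. ZBTB18 itself had 907, 2800 and 6858 CPM in FL-mut, against 635, 3067 and 623 CPM in FL (-1.29 ± 0.73; edgeR adjusted p = 0.5). The part of the construct's level in these differences was not tested. In a fit of the FL and FL-mut libraries alone, edgeR called 0 genes at the same threshold and 785 had an unadjusted p under 0.05. DESeq2 on all 15 libraries called 119.

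Against SF-Nte, whose libraries were shallower than those of FL (432611 to 603155 counts), 72 of 6767 genes passed (1.06%), 39 higher (0.576%) and 33 lower (0.488%) in FL. Lowest in p were HMGN3, S100A6, S100A4, LGALS1, ANXA2 and MT2A. S100A4 averaged 19.1 ± 15.5 CPM in FL and 495 ± 89.2 CPM in SF-Nte (log2 difference -4.68 ± 0.53, SE; edgeR adjusted p = 0.000427), and ANXA2 8128 ± 641 CPM in FL and 32936 ± 2977 CPM in SF-Nte (-2.02 ± 0.27; edgeR adjusted p = 0.00201). MT2A averaged 334 ± 139 CPM in FL and 1745 ± 350.3 CPM in SF-Nte (-2.38 ± 0.34; edgeR adjusted p = 0.00375). SPANXB1 averaged 152 ± 76.5 CPM in FL and 10.1 ± 6.01 CPM in SF-Nte (3.88 ± 0.67; edgeR adjusted p = 0.0136), and CAV2 82.8 ± 16.6 CPM in FL and 12.4 ± 2.71 CPM in SF-Nte (2.73 ± 0.48; edgeR adjusted p = 0.0141). FL was thus lower for the S100, annexin and metallothionein genes named and higher for SPANXB1 and CAV2. ZBTB18 itself had 470, 199 and 234 CPM in SF-Nte, below every FL library at 635, 3067 and 623 CPM (2.26 ± 0.76; edgeR adjusted p = 0.189). The construct's level and its form differ together here, and the part of either in these differences was not tested. HNMT and FOXJ3 missed the threshold here (log2 differences 1.01 ± 0.43 and -2.14 ± 0.68; edgeR adjusted p = 0.316 and 0.165). The number called was 11 without FL replicate 2 and 13 without SF-Nte replicate 1.

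**Figure D5:**
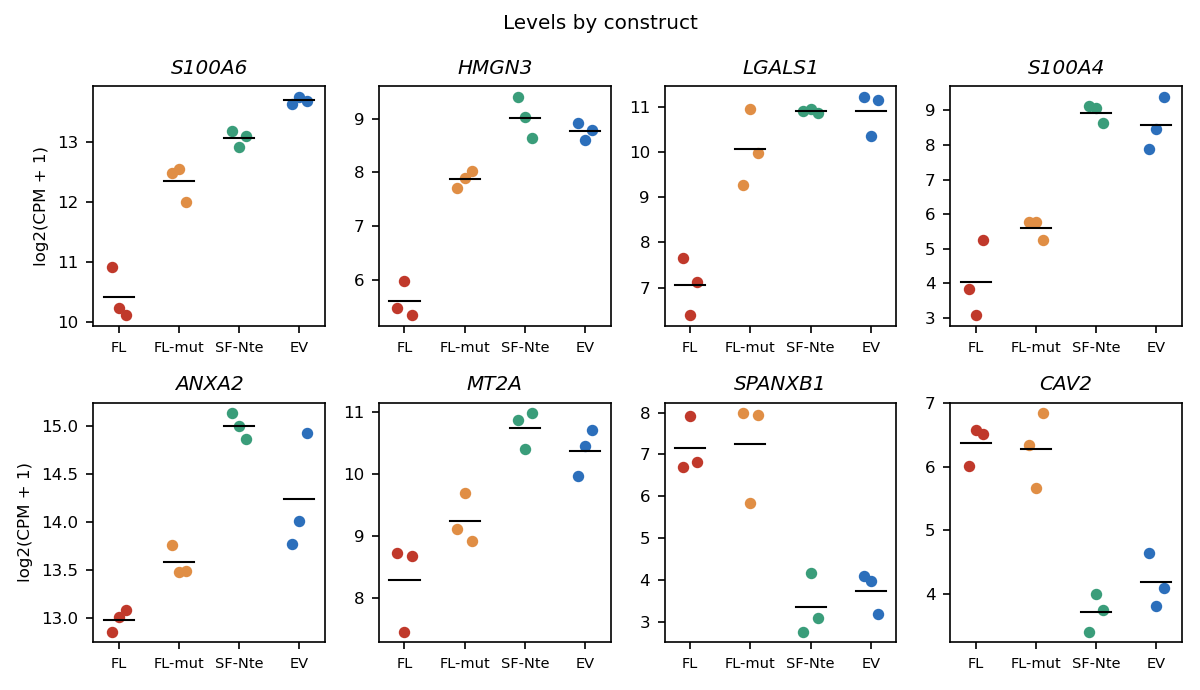
Levels of 8 called genes in the 3 libraries each of FL, FL-mut, SF-Nte and EV, as log2(CPM + 1), with the mean of the log values as a bar and an axis range for each panel. S100A6, HMGN3 and LGALS1 are lower in FL than in FL-mut, while SPANXB1 and CAV2 stand high in both FL and FL-mut and low in SF-Nte and EV.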

How the data were processed

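The deposited table holds raw counts for each gene symbol. The submitters' processing notes name GRCh38. Which aligner and counter made the counts, with which annotation and strand setting, is not given in the sources used here, so reads of overlapping genes may not be separated. Libraries were made with PCR barcoding and cDNA-PCR kits per the labels' protocols, without molecular identifiers, so floors cover counting error only.

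Groups and replicate numbers came from the sample titles. The test was edgeR 4.0.16 (R 4.3.3): filterByExpr (minimum count 10, minimum total 15) kept 6767 of 18485 genes, TMM scaled the libraries, and all 15 libraries entered a quasi-likelihood fit with 1 mean per group and robust dispersion. P-values were adjusted over all genes tested. The standard error is the size of the log2 fold change over the square root of F. The floor is 3 counts. Bounds on a fold compare libraries pooled within each group and leave out the spread among libraries. Of the symbols, 97.3% matched GENCODE 29, which gave the gene positions. The test was tried on simulated data. It recovered 0 of 67 genes changed by a log2 size of 1, 9 of 67 at 2 and 34 of 66 at 3. In 167 of the genes tested the counts share a common divisor above 1 in all libraries, COL5A1 among them.

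Over 3826 genes, the deviations of same-number FL and EV libraries from their group means correlated at 0.35, 0.14 and 0.43, all above 0.1. Those of every pair with different numbers lay below 0. As deviations from a group mean sum to 0, values below 0 there largely follow from the same-number values and are no separate evidence. The numbers were therefore taken to pair FL and EV. This comes from the data, as no label gives the meaning of a number. Between FL and FL-mut (0.23, 0.06 and 0.08) and between FL and SF-Nte (0.03, -0.05 and 0.00) they were not, and SF-mut was not checked. FL replicate 2 and FL-mut replicate 3, of different numbers, correlated at 0.295, above the 0.14 of FL and EV replicates 2. A value of that size therefore does not by itself show a pair, and the pairing stays uncertain. The replicate block on all 15 libraries still gives every group the same replicate effect.

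The genes named are ZBTB18, every gene called in FL against EV, up to 3 members per list called or else of lowest p with no overlap, and up to 6 genes called of lowest p against each other construct. Some genes that this rule names are not reported here. Other genes were chosen after their values were seen. The members, the lists and the rule were chosen with earlier results of these data known. Alternatives were DESeq2 1.42.0, other scaling, filters, dispersion, sets of libraries and the replicate block, and each library left out.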

Additional observations from a re-analysis of the deposited data

How the results depend on the processing

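FL against EV gave 21 calls. The number was 202 with no filter on low counts (90 higher and 112 lower), 137 with DESeq2 (72 and 65), 35 with a stricter filter (16 and 19) and 13 with the 6 libraries alone (8 and 5, with 10 of the 21). With the replicate block it was 25 on all 15 libraries (8 and 17), 17 of them among the 21, and 69 on the 6 libraries alone (48 and 21). The block on 15 libraries also called MGST3, S100A16, SH3BGRL, PKM, PEG10, LDHB, NAA38 and EEF1G and lost CAV2, HNMT, ABHD12B and CCL2. It changed no other call of FL against EV there. With the block on the 6 libraries alone CAV2, HNMT, CCL2 and MDP1 missed (edgeR adjusted p = 0.0544, 0.0719, 0.0905 and 0.0551) and ABHD12B passed. Leaving out 1 library gave 6 to 23 calls. Leaving out both libraries of a number, chosen after seeing the data, gave 181, 15 and 183 for numbers 1, 2 and 3 in the paired fit. Each of these fits without a number left 1 residual degree of freedom. FL against FL-mut gave 6 calls, or 348 with no filter, 119 with DESeq2, 2 to 9 with 1 library left out, 0 with the 6 libraries alone (785 at an unadjusted edgeR p under 0.05) and 0 with the block there (734). FL against SF-Nte gave 72 calls, or 301 with no filter, 291 with DESeq2, 130 with the 6 libraries alone and 11 to 65 with 1 library left out. The cause of these shifts was not tested. ZMYM3, uncalled between FL and EV at a log2 fold change of -0.15, changed sign with the replicate block (0.062), with the block and a GC and length correction (0.24), without EV replicate 2 (0.32) or FL replicate 2 (0.11), and ranged from -0.58 to 0.32 with 1 library left out. Over all alternatives, single genes kept side and direction in 1212 results, lost the threshold in 101 and gained it in 65, and list medians moved by less than the SD over the FL libraries in 579 and by at least that in 84. At these depths a missed threshold does not show an unaltered level.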
